A study of Mus musculus with 59 samples.

Results

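The corticotropin-releasing hormone system was described through 5 genes, Crh, Ucn, Crhr1, Crhr2 and Crhbp, of the 54232 genes counted in 59 brain RNA-seq libraries. The 5 genes were chosen by family, and the family was selected on the readout of 1 comparison, that of 154Q with WT mice in the brainstem, where Crh fell. The values of the members in that comparison are therefore a description with no test. No comparison that uses the brainstem libraries is counted as a test of Crh. Calls of other genes in that comparison are no separate support for the change of Crh. All mice were C57BL/6 per the labels (the methods name the substrain C57BL/6J), aged 10 weeks. WT mice had no engineered Atxn1 allele. The 154Q mice (Atxn1 154Q/2Q) carried 1 knock-in Atxn1 allele with an expanded CAG repeat and 1 unexpanded allele, and model spinocerebellar ataxia type 1. The 154Q-AXH mice (Atxn1 154Q[V591A;S602D]/2Q) carried the same expansion together with the substitutions V591A and S602D in the AXH domain, through which ATXN1 binds the repressor CIC. Both expanded alleles were expressed from the endogenous locus in all cells that use it, and the 154Q-AXH allele was made by editing the 154Q allele. Cerebellum, brainstem, hippocampus, striatum and cortex were dissected from 12 mice, 4 of each genotype, and 1 brainstem library of a 154Q-AXH mouse was not analysed here, which left 3. The comparison of 154Q with WT asked what the expansion changes in each region, and that of 154Q-AXH with WT and with 154Q asked how much of the change is seen when the ATXN1-CIC contact is disrupted.

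CRH is a neuropeptide that starts the pituitary stress response when released from the hypothalamus, and it also acts as a transmitter in many other circuits. In the hindbrain it is made by neurons of the inferior olive, whose climbing fibres carry it to cerebellar Purkinje cells, and in the forebrain by a share of GABAergic interneurons. Urocortin, the product of Ucn, is a related ligand made mainly by the Edinger-Westphal neurons of the midbrain. Both bind CRHR1, a receptor coupled to Gs that raises cyclic AMP, and CRHR2, which prefers the urocortins. CRHBP is a secreted protein that holds CRH and urocortin away from the receptors.

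Libraries held 64416717 to 112343574 counted read pairs in the cerebellum, brainstem and hippocampus, and 28058359 to 54719126 in the striatum and cortex. Levels are counts-per-million values (CPM), scaled over all 59 libraries by the trimmed mean of M values, and levels of different genes are compared only per length, as CPM per kilobase of exon length (RPKM). The hippocampal library labelled 154Q-76 stood apart. Its summed level of 6 brainstem Hox and glycinergic genes was 357 CPM, against 0.243 to 1.82 CPM in the other 11 hippocampal libraries, so hippocampal results are given with and without it. The cortical libraries labelled 154Q-76 and 154Q-AXH-207 have file names that give each other's mouse, and the labels were followed. All 4 WT libraries of the striatum carried the 4 striatal marker genes, at 1199 to 3987 CPM in sum, but also the 4 cortical ones, at 121 to 408 CPM against 450 to 534 CPM in the WT cortex. Atxn1 itself, counted with both alleles together, was at 33.1 to 81.1 CPM in the WT libraries. The repeat and the 2 substitutions cannot be read from counts per gene, so Atxn1 does not check the labels.

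In WT mice the 5 genes had separate regional patterns. Per length, Crhr1 in the cerebellum was the highest of all member values, at 32.2 ± 4.60 RPKM (SD, n = 4). Crhbp was highest in the cortex at 16.0 ± 0.738 RPKM, and Crh was highest in the brainstem at 12.8 ± 1.38 RPKM. Crhr2 stayed between 0.107 and 0.538 RPKM in the means of the 5 regions and Ucn between 0.00553 and 0.323 RPKM.

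**Figure D1:**
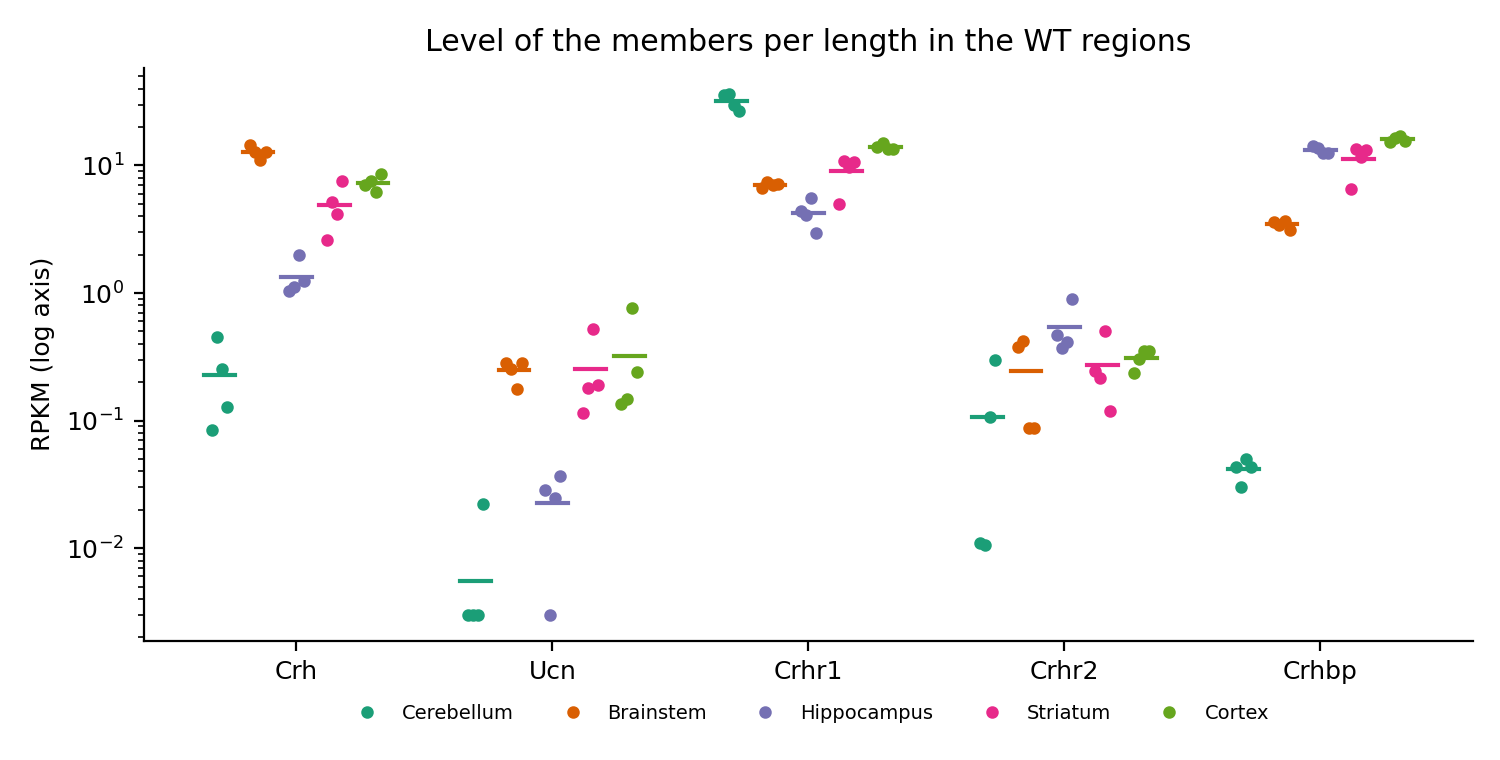
RPKM (log axis) of the 5 members in the 4 WT libraries of each region. Points are libraries, bars are means, and 4 Ucn values of 0 are drawn at 0.003 RPKM. Crhr1 leads in the cerebellum, and Crh and Crhbp are lowest there.

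The regional differences were tested in the 20 WT libraries with edgeR's quasi-likelihood test over 22200 genes, in 10 pairs of regions. Most genes differ between regions, so the background was high. It was 65.4% of genes called (adjusted p below 0.05) between cerebellum and brainstem, 63.6% between cerebellum and hippocampus, 71.8% between cerebellum and striatum and 70.3% between cerebellum and cortex. It was 60.7% between brainstem and hippocampus, 66.1% between brainstem and striatum and 65.1% between brainstem and cortex. It was 58.2% between hippocampus and striatum, 55.4% between hippocampus and cortex and 10.7% between striatum and cortex. Against this, Crhr1 was called in 9 of 10 pairs, Crhbp in 8, Ucn in 6 and Crhr2 in 2. The 6 pairs of Ucn all set cerebellum or hippocampus against brainstem, striatum or cortex. Each WT library held 0 to 1 Ucn counts in the cerebellum and 0 to 2 in the hippocampus. Ucn thus entered this test through the regions where it is higher, and its 6 calls are a description. Crhbp had 4 to 7 counts in each WT library of the cerebellum and did not pass the filter of that region's own genotype fit. Its calls that set the cerebellum against another region are likewise a description. Crh was called in 5 of the 6 pairs that leave out the brainstem, whose WT libraries entered the comparison by which the family was chosen. The 20 libraries came from 4 mice, and with the mouse as a replicate block Crhr2 was called in 1 pair and the counts of the other 4 genes stayed as given.

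Crh was ordered brainstem (16.8 ± 1.82 CPM, SD, n = 4), cortex (9.69 ± 1.35), striatum (6.44 ± 2.7), hippocampus (1.77 ± 0.585) and cerebellum (0.303 ± 0.220). The neighbours striatum and cortex did not differ beyond their spread (log2 difference -0.62, SE 0.25, adjusted p = 0.129), and hippocampus and cerebellum did (2.64, reading hippocampus over cerebellum, SE 0.41, adjusted p = 9.49e-06). Crhr1 was ordered cerebellum (79.2 ± 11.3 CPM), cortex (34.3 ± 1.87), striatum (22.2 ± 6.67), brainstem (17.4 ± 0.839) and hippocampus (10.5 ± 2.62). Only brainstem and striatum were not told apart (adjusted p = 0.117). Crhbp was ordered cortex (28.8 ± 1.33 CPM), hippocampus (23.8 ± 1.42), striatum (20.2 ± 5.85), brainstem (6.23 ± 0.454) and cerebellum (0.0754 ± 0.0150). The cerebellum had 4 to 7 Crhbp counts in each WT library, and the hippocampus differed neither from the cortex (adjusted p = 0.119) nor from the striatum (adjusted p = 0.127).

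Crh, on chromosome 3 at 19693401 to 19695396 on the minus strand of GRCm38, has 2 exons and overlaps no other gene. In the brainstem it read 14.6, 16.9, 19.1 and 16.8 CPM in the 4 WT mice. The 4 154Q mice read 4.25, 4.37, 5.91 and 5.16 CPM, and the 3 154Q-AXH mice 6.16, 6.49 and 6.58 CPM. Every mutant library was below every WT library, and every 154Q library was below every 154Q-AXH library. The fitted log2 fold change was -1.77 (SE 0.103) for 154Q over WT, which leaves 0.293 of the WT level. It was -1.41 (SE 0.111) for 154Q-AXH over WT, or 0.377 of the WT level. The 2 comparisons share the WT libraries. Between the mutants the log2 fold change was 0.36 (SE 0.116), higher in 154Q-AXH, and it was 0.17 with the number series of the mice (lower or higher) as a model term. All 154Q mice carry numbers of a lower series and all 154Q-AXH mice numbers of a higher one, so series and mutant genotype cannot be told apart without the WT mice that bridge them. In bulk tissue, fewer cells that make a transcript and less transcript per cell cannot be told apart.

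**Figure D2:**
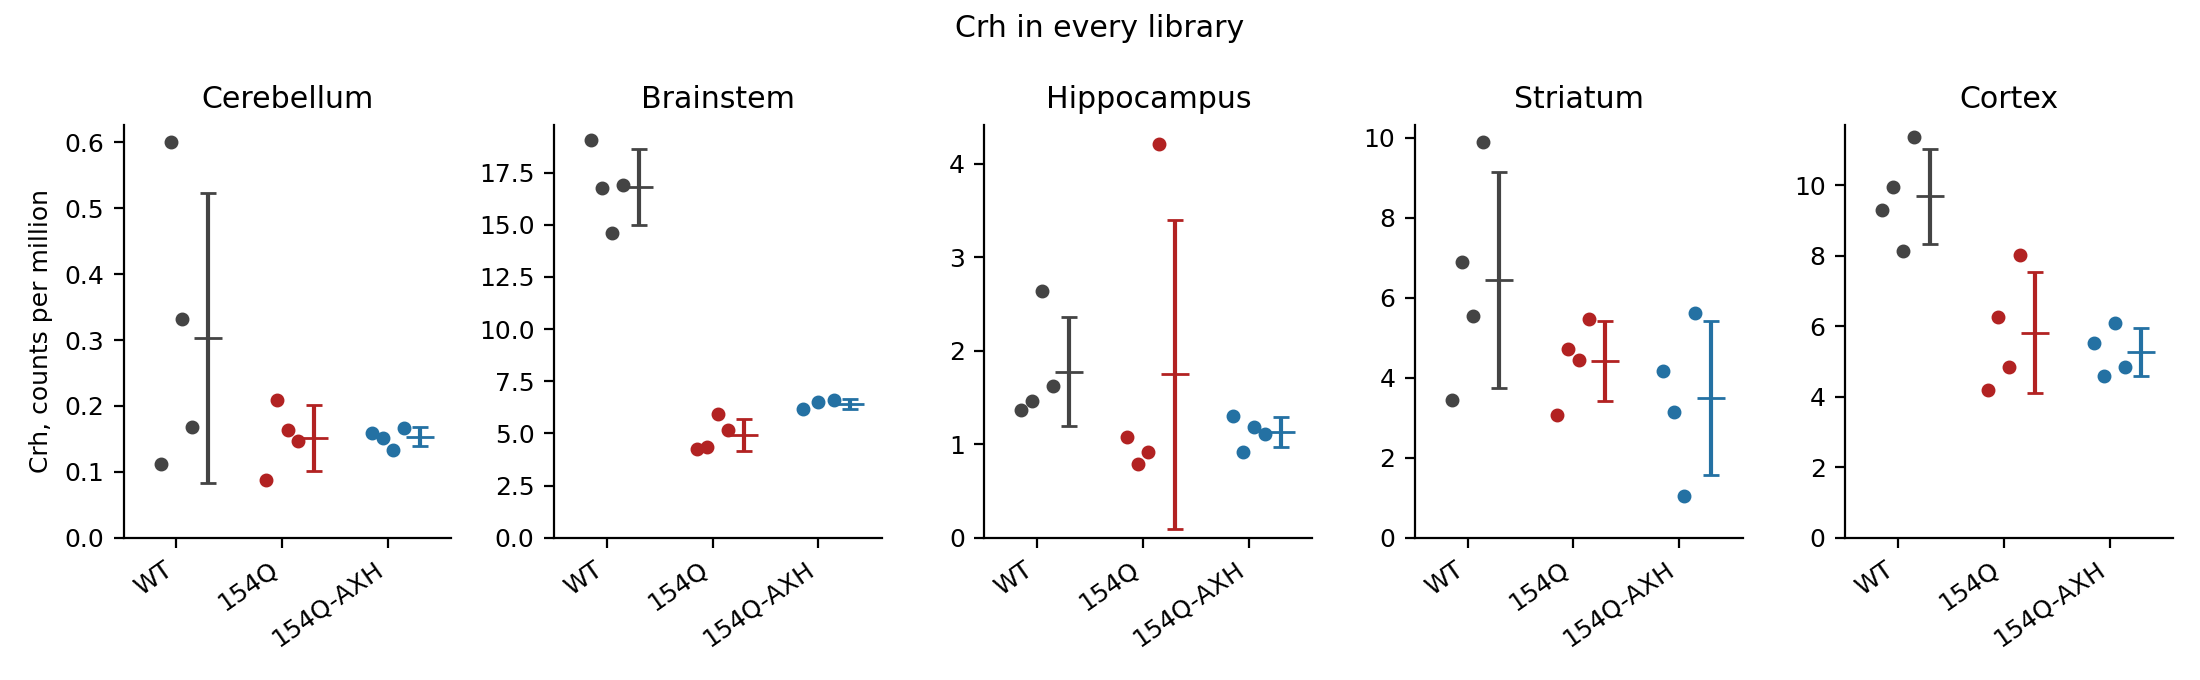
Crh in CPM in every library, by region and genotype, each panel on its own linear axis from 0. Points are libraries and the bar beside them is the mean ± SD. The brainstem groups do not overlap, the cortical mutant libraries lie below all WT libraries, and 1 hippocampal 154Q library at 4.21 CPM stands above the rest.

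Across all genes 0.538% of 21754 were called in the brainstem between 154Q and WT. That count of 117 fell to 19 with the number series as a model term and to 38 without mouse WT-221. The family was picked because Crh had the lowest p of these, and its change was the third largest in size among the 117 called genes. The other members are given for that comparison without a test. Crhr1 read 16.3 to 18.3 CPM in WT and 12.7 to 17.5 CPM in 154Q, with a log2 fold change of -0.23 (SE 0.108). Crhbp read 5.64 to 6.64 and 5.30 to 7.34 CPM, a change of -0.04 (SE 0.103). Ucn had 8 to 16 counts in each WT library and 2 to 10 in each 154Q library, and Crhr2 ranged over 0.446 to 2.16 and 0.412 to 3.64 CPM. The 154Q and WT brainstem libraries overlapped in each of the other members. Those of Crh did not, but this comparison chose Crh, so its separation is a description. The share of all brainstem genes without such overlap was not measured.

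Between 154Q-AXH and WT, 0.0138% of brainstem genes were called, and 0 of the 4 other members passed edgeR's quasi-likelihood test. Their log2 fold changes were -0.36 (SE 0.357) for Ucn, -0.13 (SE 0.117) for Crhr1, -0.08 (SE 0.112) for Crhbp and 0.38 (SE 0.781) for Crhr2. Between 154Q-AXH and 154Q, 0% of genes and 0 of these 4 members were called. In both comparisons 0 of the 4 were at an unadjusted p below 0.05. DESeq2 gave an adjusted p for 3 of the 4 in each comparison and called 0.

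Cell types of the brainstem that could make Crh were followed by marker lists. The lists were chosen with earlier results known, and their calls in 154Q come from the comparison that chose the family. They are therefore not independent of the fall of Crh. Over all brainstem genes 0.538% were called in 154Q and 0.0138% in 154Q-AXH. The 4 genes of the inferior olive list summed to 132 to 145 CPM in WT, 133 to 162 in 154Q and 128 to 170 in 154Q-AXH. Within that list Htr5b, a serotonin receptor, read 7.73 to 11.4 CPM in WT, 3.43 to 5.22 in 154Q and 4.97 to 5.80 in 154Q-AXH. Htr5b was lower in 154Q than WT (log2 fold change -0.97, SE 0.135, adjusted p = 0.00840) and its fall in 154Q-AXH did not pass (-0.81, SE 0.147, adjusted p = 0.198). The other 3 genes of the list did not pass in either mutant: Pou4f1 changed by -0.46, Etv1 by 0.20 and Foxp2 by 0.16 on the log2 scale in 154Q. The 3 pontine nuclei genes summed to 98.7 to 119 CPM in WT and 85.5 to 127 in 154Q, and none of them was called.

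The 5 locus coeruleus genes summed to 33.7 to 35.4 CPM in WT, 23.9 to 27.7 in 154Q and 25.3 to 29.3 in 154Q-AXH. Dbh, which makes noradrenaline, was the 1 of 5 that passed in 154Q (-0.56, SE 0.0942, adjusted p = 0.0207). The 3 serotonergic raphe genes summed to 35.2 to 48.4, 20.8 to 31.9 and 30.2 to 35.5 CPM. Tph2, the enzyme of serotonin synthesis in neurons, was the 1 of 3 that passed in 154Q (-0.62, SE 0.115, adjusted p = 0.0389). Neither list had a called gene in 154Q-AXH. Of the 6 hypothalamic genes, Hcrt, Oxt and Avp were at no more than 0.167 CPM in any brainstem library, and the list summed to 7.48 to 9.38 CPM in WT, 5.75 to 9.04 in 154Q and 6.65 to 9.45 in 154Q-AXH. The part of any of these cell types in the level of Crh was not tested.

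Over the 11 brainstem libraries the genes whose log2 CPM ran most like that of Crh, of 16779 genes at 1 CPM or more in some group, were Slc7a10 (Pearson's r = 0.970), 1700001O22Rik (0.958), Lzts1 (0.954) and Htr5b (0.946). Slc7a10 is a transporter of small neutral amino acids. These points pool 3 genotypes that Crh itself separates, so r is a measure of likeness and no test. Over the 15 means of region and genotype the 5 most alike were C1qtnf1 (0.984), Lamp5 (0.975), Chrna4 (0.973), Ptprf (0.969) and Hsf4 (0.968).

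In the cortex 3 of the 4 members tested fell in both mutants: the ligand Crh, the receptor Crhr1 and the binding protein Crhbp. The background was 11.1% of 18610 genes called between 154Q and WT and 7.15% between 154Q-AXH and WT. For each of the 3 genes every mutant library lay below every WT library. The share of all genes with such separation was not measured, in the cortex or in any other region. DESeq2 called the same count of members, 3 in each comparison.

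Cortical Crh read 8.14, 11.4, 9.29 and 9.95 CPM in WT, 4.18, 6.26, 4.83 and 8.03 CPM in 154Q, and 5.53, 4.58, 6.11 and 4.85 CPM in 154Q-AXH. Its log2 fold change by edgeR's quasi-likelihood test was -0.72 (SE 0.163, adjusted p = 0.0104) in 154Q and -0.87 (SE 0.167, adjusted p = 0.00480) in 154Q-AXH. The highest 154Q library, 154Q-76, is 1 of the 2 whose file names and labels disagree. Without both of those libraries the changes were -0.92 (adjusted p = 0.00228) and -0.90 (adjusted p = 0.00495), and with their labels exchanged -0.89 and -0.70, all called. With the number series of the mice as a model term the fall in 154Q did not pass (-0.74, adjusted p = 0.0590), nor did it against the 2 WT mice of the lower series alone (-0.74, adjusted p = 0.188).

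Cortical Crhr1, on chromosome 11 at 104132855 to 104175523 on the plus strand, read 33.0, 32.9, 34.4 and 36.9 CPM in WT. It read 24.2, 29.9, 24.7 and 30.1 CPM in 154Q and 25.1, 24.5, 29.1 and 26.4 CPM in 154Q-AXH. The log2 fold changes were -0.32 (SE 0.0782, adjusted p = 0.0152) and -0.38 (SE 0.0787, adjusted p = 0.00823) by edgeR. The call in 154Q was lost without mouse WT-221 (adjusted p = 0.0590), without mouse 154Q-69 (adjusted p = 0.0545), with the number series as a model term (adjusted p = 0.149) and against the lower-series WT mice alone (adjusted p = 0.30).

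Cortical Crhbp, on chromosome 13 at 95431371 to 95444924 on the minus strand, read 30.4, 28.0, 27.5 and 29.4 CPM in WT. It read 18.1, 19.4, 20.7 and 22.3 CPM in 154Q and 24.8, 23.3, 22.5 and 23.8 CPM in 154Q-AXH. All 3 groups were free of overlap, with 154Q lowest. The log2 fold changes were -0.51 (SE 0.0656, adjusted p = 0.000186) in 154Q and -0.28 (SE 0.0652, adjusted p = 0.0156) in 154Q-AXH by edgeR, and the second did not pass with the number series as a model term (adjusted p = 0.117). Between the mutants Crhbp differed by 0.23 (SE 0.0664), higher in 154Q-AXH, which did not pass over all genes (adjusted p = 0.744). In that comparison 0% of cortical genes and 0 of 4 members were called by edgeR, 0 by DESeq2, and 1 member, Crhbp, was at an unadjusted p below 0.05.

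**Figure D3:**
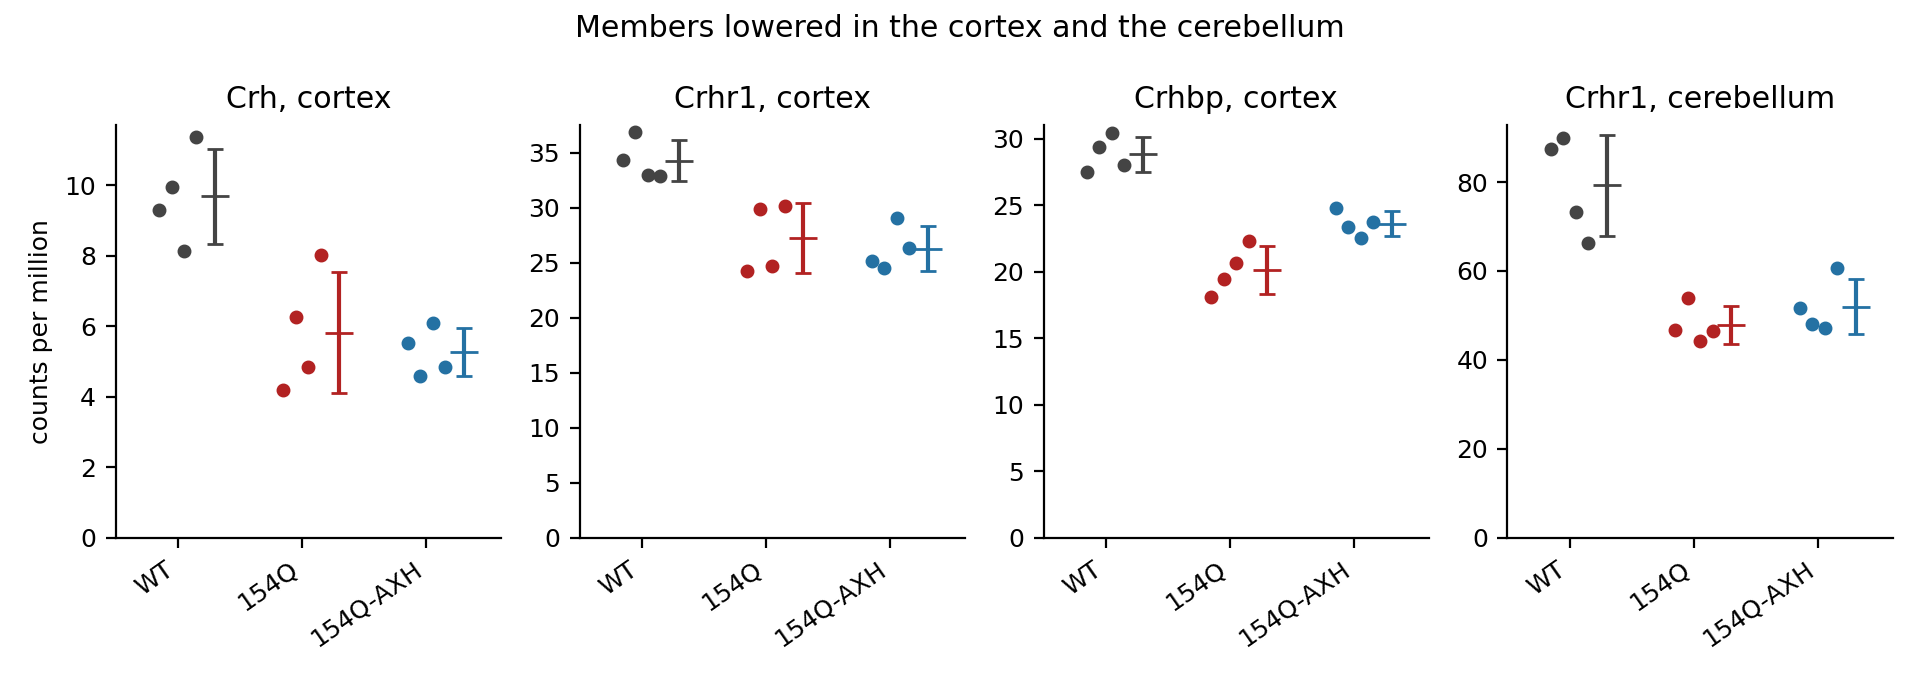
CPM of Crh, Crhr1 and Crhbp in the cortex and of Crhr1 in the cerebellum, in every library by genotype, each panel on a linear axis from 0. Points are libraries and the bar beside them is the mean ± SD. In each panel all mutant libraries lie below all WT libraries.

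Crhr2 (0.911 to 2.47 CPM over the 12 cortical libraries) was not called, at -0.17 (SE 0.269) in 154Q and -0.48 (SE 0.287) in 154Q-AXH. Ucn had 3 to 13 counts in each WT library of the cortex, 0 to 5 in 154Q and 0 to 2 in 154Q-AXH, and was not tested because it did not pass the filter on low counts.

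Interneuron genes and some markers of other neurons were lowered in the same cortical comparisons. The 8 genes of that list summed to 1214 to 1327 CPM in WT, 906 to 1025 in 154Q and 998 to 1053 in 154Q-AXH. Of the 8, 6 were lowered and 0 raised in 154Q, with a median log2 fold change of -0.53, and 4 were lowered and 0 raised in 154Q-AXH, with a median of -0.35, where the median of all genes was 0.01 and 0.00. Over all cortical genes 11.1% and 7.15% were called. Sst, the peptide of somatostatin interneurons, read 192 to 215 CPM in WT, 128 to 156 in 154Q and 144 to 169 in 154Q-AXH, a log2 fold change of -0.53 (SE 0.0656) and -0.39 (SE 0.0655). Vip read 50.0 to 56.6, 25.9 to 37.1 and 27.9 to 31.2 CPM, a change of -0.83 (SE 0.0939) and -0.80 (SE 0.0942). Gad1, which makes GABA, changed by -0.53 (SE 0.0487) and -0.43 (SE 0.0486). All of these passed, with adjusted p of at most 0.00184. Over the 15 region and genotype means the gene most like Crhbp was Sst (r = 0.994), followed by Lrfn2 (0.992) and 2900052N01Rik (0.992). These means pool regions that differ widely in Crhbp, so r is no measure of a shared change with genotype. In the cortex Lrfn2 averaged 20.7 CPM in WT, 20.4 in 154Q and 22.0 in 154Q-AXH, and 2900052N01Rik 47.5, 42.3 and 42.2 CPM. Genes of other marker lists were also lowered in both mutants, with log2 fold changes of -1.10 and -0.91 for Wfs1, -0.95 and -0.82 for Ppp1r1b, -0.49 and -0.41 for Etv1 and -0.40 and -0.53 for Rasgrf2 of the cortical list. Slc17a7, the vesicular glutamate transporter of excitatory neurons, was lowered in 154Q (-0.25). The part of any of these cell types in the level of the cortical members was not tested.

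In the cerebellum Crhr1 fell in both mutants and was the only member called. It read 73.3, 66.3, 87.5 and 89.9 CPM in WT, 46.7, 54.0, 44.3 and 46.5 CPM in 154Q, and 51.7, 48.1, 47.2 and 60.7 CPM in 154Q-AXH. No mutant library reached the WT range. By edgeR the log2 fold change was -0.72 (SE 0.0966, adjusted p = 0.000428) in 154Q, or 0.606 of WT, and -0.62 (SE 0.0963, adjusted p = 0.00418) in 154Q-AXH, or 0.653 of WT. It was called under all 20 alternatives in each comparison. The background was 5.22% and 2.21% of 20874 genes. Between the mutants the difference was 0.11 (SE 0.0964) with an approximate 95% interval of -0.08 to 0.30, and 0 of 3 members tested were called where 0.0335% of genes were. There 0 members were at an unadjusted p below 0.05, and DESeq2 gave an adjusted p for 2 members and called 0.

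Of the 5 cerebellar marker genes 1 was lowered in each mutant, Car8 of the Purkinje cells (-0.39 in 154Q and -0.25 in 154Q-AXH). Their sum was 4856 to 5421 CPM in WT, 4213 to 4460 in 154Q and 4733 to 5031 in 154Q-AXH. Cerebellar Crh was low, with 10 to 44 counts in a WT library, 7 to 21 in 154Q and 12 to 16 in 154Q-AXH. Its log2 fold changes of -0.89 (SE 0.457) and -0.91 (SE 0.451) did not pass (adjusted p = 0.336 and 0.363), and the WT libraries themselves ran from 0.112 to 0.601 CPM. Crhbp and Ucn did not pass the filter there. The genes most like Crhr1 over the 15 means were Bcl7c (0.980), Cdk16 (0.980) and Gm7276 (0.978).

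Crhr1 and Crhbp both fell in the cortex, and the 250 bases before their transcript starts are shown for that reason, from RefSeq on GRCm38.p6, 5′ to 3′ on the strand of the gene. RefSeq promoters were matched for 4 of the 5 members, all but Crh. The letters searched were TGACGTCA, the cyclic AMP response element, and TGAATGAA and TGAATGGA, which are among the octamers that CIC binds, on both strands. Other forms of the CIC site were not searched. Neither printed window holds any of the letters searched, so all letters are in lower case. The first lies at chr11:104132531-104132780 on the plus strand, the second at chr13:95444832-95445081 on the minus strand.
Crhr1: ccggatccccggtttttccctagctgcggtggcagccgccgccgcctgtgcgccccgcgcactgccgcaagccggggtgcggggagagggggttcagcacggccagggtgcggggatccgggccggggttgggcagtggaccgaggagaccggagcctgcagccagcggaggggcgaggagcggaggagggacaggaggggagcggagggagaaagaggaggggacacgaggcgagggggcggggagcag
Crhbp: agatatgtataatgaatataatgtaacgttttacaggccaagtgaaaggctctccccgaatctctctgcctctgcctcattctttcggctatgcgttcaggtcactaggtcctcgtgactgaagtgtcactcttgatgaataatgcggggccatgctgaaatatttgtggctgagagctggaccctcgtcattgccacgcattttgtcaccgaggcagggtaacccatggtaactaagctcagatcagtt
The window of Crhr1 is 74.8% G and C and that of Crhbp 47.2%, where the median of 32851 promoters is 52.4%. Among all these promoters 1.55% hold TGACGTCA, 1.08% TGAATGAA and 1.01% TGAATGGA. Of the other members, Ucn holds 1 copy of TGACGTCA and Crhr2 none of the 3. A match is a description of letters and not of binding.

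In the hippocampus 0 of 4 members tested were called by edgeR in either mutant against WT, where 5.91% (154Q) and 1.3% (154Q-AXH) of 21454 genes were, and DESeq2 called 0 as well. Without 154Q-76 the background was 6.06% and 3.61% of 21754 genes. With all hippocampal libraries 1 member, Crhbp, was at an unadjusted p below 0.05 in 154Q and 0 were in 154Q-AXH. Hippocampal Crhbp read 22.5, 22.7, 25.4 and 24.6 CPM in WT, 13.5, 12.5, 17.0 and 9.86 CPM in 154Q, and 18.9, 18.8, 16.8 and 4.06 CPM in 154Q-AXH. Every mutant library lay below every WT library. The log2 fold changes were -0.83 (SE 0.335, adjusted p = 0.172) and -0.70 (SE 0.335, adjusted p = 0.36). Without 154Q-AXH-218, the library at 4.06 CPM, the spread was smaller and the fall in 154Q passed (-0.84, SE 0.122, adjusted p = 0.00254), while that in 154Q-AXH did not (-0.38, SE 0.131, adjusted p = 0.220). Without 154Q-76 the changes were -0.72 (adjusted p = 0.262) and -0.69 (adjusted p = 0.267). The 154Q fall also passed with only the 154Q and WT libraries in the fit (-0.83, SE 0.136, adjusted p = 0.0134). The interneuron list stood at 970 to 1014 CPM in WT, 707 to 802 in 154Q and 651 to 820 in 154Q-AXH, with 3 of 8 and 1 of 8 genes lowered, or 3 of 8 in both mutants without 154Q-76. The 4 hippocampal marker genes summed to a median of 552 CPM in WT, 313 in 154Q and 397 in 154Q-AXH. Of these Wfs1, a marker of CA1 neurons, was lowered in both mutants (-1.59, SE 0.221, and -1.60, SE 0.222), and Lct (-1.65, SE 0.292) and Neurod6 (-0.99, SE 0.193) were lowered in 154Q. Without 154Q-76 the count was 3 of 4 and 2 of 4, with Neurod6 also lowered in 154Q-AXH (-0.71). The part of these cells in the hippocampal level of the members was not tested.

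Hippocampal Crh turned on 1 library. It read 2.64, 1.63, 1.37 and 1.46 CPM in WT and 1.30, 0.916, 1.18 and 1.11 CPM in 154Q-AXH. In 154Q it read 1.07, 0.785 and 0.913 CPM in 3 libraries and 4.21 CPM in mouse 154Q-76, the library that also held the brainstem genes. With that library the change in 154Q was 0.06 (SE 0.470, adjusted p = 0.963). Without it the change was -0.94 (SE 0.246, adjusted p = 0.0437), past the threshold and in the opposite direction, and in 154Q-AXH -0.66 (SE 0.222, adjusted p = 0.13). Ucn had 16 counts in that library and 0 in the other 3 of its group. Between the mutants 0% of hippocampal genes and 0 of 4 members were called by edgeR, 0 by DESeq2, and 0 were at an unadjusted p below 0.05.

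In the striatum 0 of 4 members tested were called by edgeR or DESeq2 in any comparison, and 0 were at an unadjusted p below 0.05. The background was 5.69% (154Q over WT), 1.35% (154Q-AXH over WT) and 0% (154Q-AXH over 154Q) of 18408 genes. Crh read 5.55, 9.89, 3.44 and 6.89 CPM in WT, 3.06 to 5.46 CPM in 154Q and 1.03 to 5.63 CPM in 154Q-AXH. Its log2 fold changes were -0.54 (SE 0.385) and -0.88 (SE 0.406). The low libraries were the same for 3 members. WT-220 was lowest of its group in Crh, Crhr1 (12.4 against 23.9 to 26.5 CPM) and Crhbp (11.7 against 20.9 to 24.4 CPM), and 154Q-AXH-217 was lowest of its group in Crh (1.03), Crhr1 (10.3 against 16.1 to 23.7) and Crhbp (8.05 against 16.2 to 19.6). Those 2 libraries also had the lowest sums of the cortical list, 121 and 99.9 CPM against 304 to 408 in the other 10, and the highest of the striatal list, 3987 and 2352 CPM against 440 to 1588. The part of cortical tissue in the striatal level of these genes was not tested. Against the lower-series WT mice alone, which leaves WT-220 and WT-221 out, striatal Crhbp was lower in 154Q (-0.47, SE 0.0930, adjusted p = 0.0182).

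**Figure D4:**
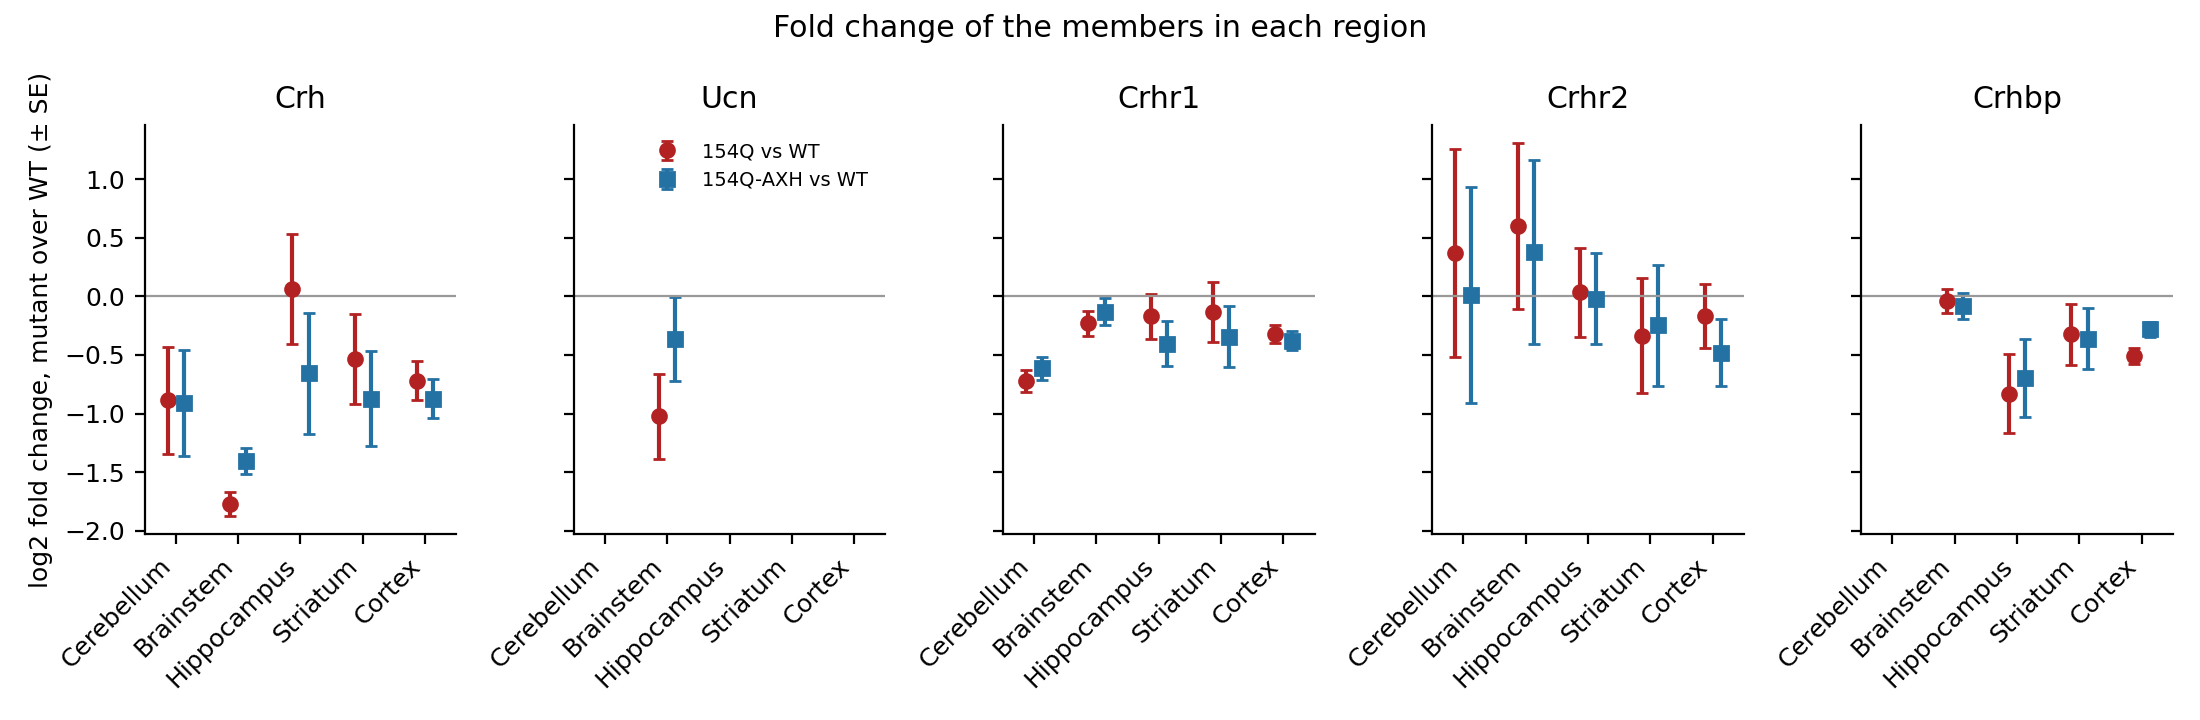
Log2 fold change ± SE of each member over WT in the 5 regions, for 154Q (circles) and 154Q-AXH (squares), from the fit of each region. Genes that did not pass the filter on low counts have no point. Crh in the brainstem lies lowest, and Crhr2 has the widest errors in the cerebellum and brainstem.

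Whether the fold change differed between cerebellum, hippocampus, striatum and cortex was tested in 48 libraries, leaving the brainstem out because the family was chosen there. None of the 4 members tested passed edgeR's test of that difference, in either mutant, and 0 were at an unadjusted p below 0.05. For 154Q over WT the adjusted p was 0.694 for Crh, 0.337 for Crhr1, 0.284 for Crhbp and 0.959 for Crhr2, and for 154Q-AXH over WT it was 1 for all 4. Across genes 4.42% and 0.709% passed. In the 24 tests of the 4 genes over 6 pairs of regions 0 passed in either mutant. In 154Q 5 of the 24 were at an unadjusted p below 0.05, all with the cerebellum and of Crhbp or Crhr1, and their lowest adjusted p was 0.148 (Crhbp, cerebellum against hippocampus). Crhbp did not pass the filter of the cerebellum's own fit. It had 4 to 7 counts in each WT library there and 2 to 67 in 154Q, the 67 in 154Q-71. Its differences with the cerebellum thus rest on few counts and largely on that library. In 154Q-AXH 0 of 24 were. A call in one region and not in another is therefore not shown to be a difference between those regions for any member.

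Crhr2, the receptor that prefers urocortins, was not called in any genotype comparison tested, and its SEs of 0.706 to 0.925 were the largest of the members tested over WT in the cerebellum and brainstem. In the brainstem the 4 libraries with Ttr, a gene of the choroid plexus, below 100 CPM read 0.384 to 0.448 CPM of Crhr2, and the 7 others, with Ttr at 1029 to 4281 CPM, read 0.884 to 3.64 CPM. In the cerebellum the 5 libraries below that level read 0.0248 to 0.263 CPM and the 7 others 0.456 to 1.63 CPM. The limit of 100 CPM was set after the values were seen, and both kinds of library occur in all 3 genotypes of both regions. In the other 3 regions the 2 ranges overlapped, at 0.935 to 1.80 and 0.911 to 2.47 CPM in the cortex, 1.02 to 2.71 and 1.89 to 4.59 in the hippocampus and 0.597 to 1.22 and 1.16 to 2.6 in the striatum. The 6 choroid plexus genes summed to 33.6 to 4614 CPM over the brainstem libraries, and 0 of the 6 were called in either mutant there. How much of the Crhr2 came from choroid plexus or its surroundings was not tested. The genes most like Crhr2 over the 15 means were Chrna5 (0.972), A230077H06Rik (0.970) and Col4a2 (0.969).

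**Figure D5:**
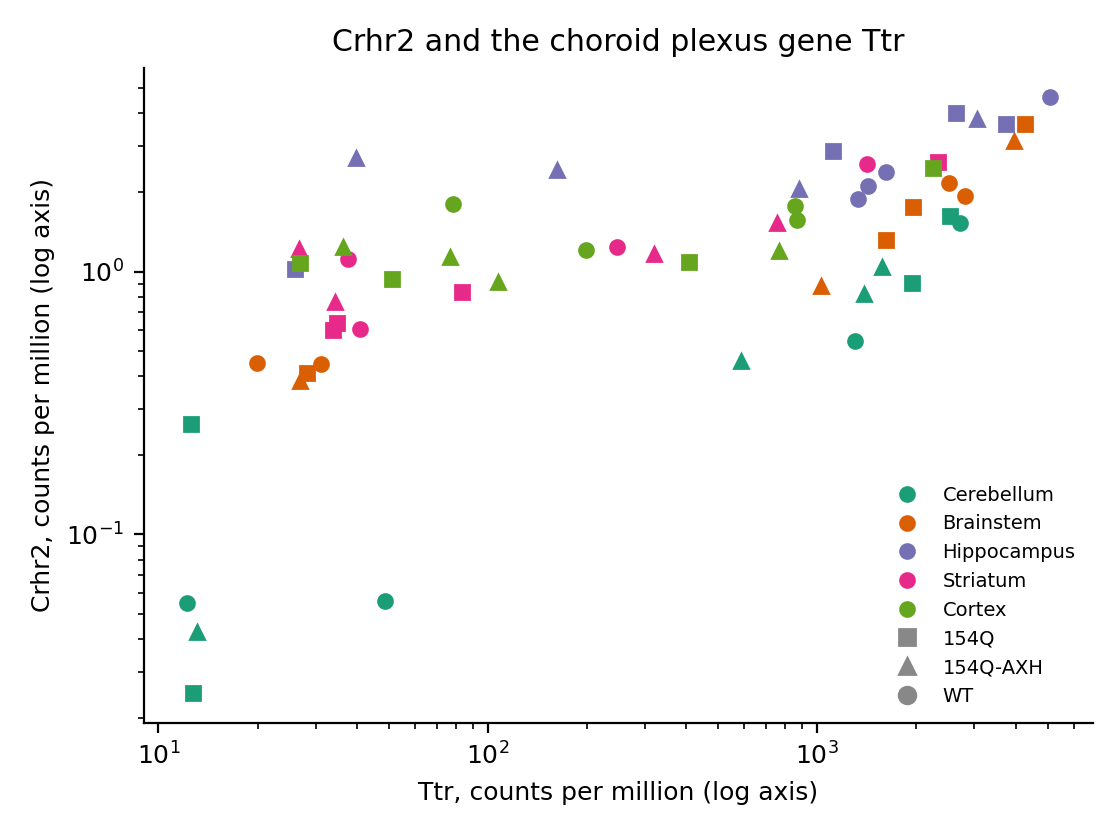
Crhr2 against Ttr in CPM, both on log axes, in all 59 libraries. Colours mark regions and shapes mark genotypes. In the brainstem and cerebellum the libraries with Ttr below 100 CPM have the lowest Crhr2, and in the other 3 regions the 2 kinds of library overlap.

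Ucn, on chromosome 5 at 31138063 to 31138829 on the minus strand, had at most 16 counts in any of the 59 libraries. In the genotype fits of single regions it passed the filter in the brainstem alone. The genes most like it over the 15 means were Gm765 (0.934), 9530036O11Rik (0.932) and Dpy19l1 (0.914).

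The other genes of the pathway were followed as 4 lists, of which the related ligands and receptors hold 12 genes, receptor signalling 16, peptide processing and granules 9 and the glucocorticoid axis 11. In the brainstem 1 of the 43 genes tested in these lists passed in 154Q, and 0 of 43 passed in 154Q-AXH. Over all brainstem genes 0.538% and 0.0138% were called. The gene that passed was Gnas, which encodes the Gs alpha subunit that CRH receptors use (-0.37, SE 0.0642, adjusted p = 0.0268). Its call comes from the comparison that chose the family.

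Over all cortical genes 11.1% were called in 154Q and 7.15% in 154Q-AXH. In the cortex the list of peptide processing and granules had 4 of 9 genes lowered and 2 raised in 154Q, and 2 lowered and 1 raised in 154Q-AXH. Its median log2 fold change was -0.21 and -0.14. Pcsk1n, an inhibitor of the convertase that Pcsk1 encodes, rose by 0.28 (SE 0.0485) and 0.32 (SE 0.0486). Pam, which amidates peptides such as CRH, rose by 0.20 (SE 0.0445, adjusted p = 0.00857) in 154Q, and Chgb of the granule core fell by 0.28 (SE 0.0620). The convertase genes fell in both mutants, Pcsk1 by 0.37 (SE 0.106) and 0.39 (SE 0.107) and Pcsk2 by 0.28 (SE 0.0626) and 0.27 (SE 0.0626). Of the related ligands and receptors, 2 of 7 tested were lowered in each mutant, Vip and its receptor Vipr1 (-0.35, SE 0.0832, and -0.37, SE 0.0836). Of 16 receptor signalling genes 0 passed in either mutant.

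Per1, a clock gene that glucocorticoids induce, was the 1 gene of the glucocorticoid axis called in the cortex, and it was lowered in both mutants (log2 fold change -0.53, SE 0.104, and -0.83, SE 0.105). It was also the 1 called of that list in the striatum (-0.65, SE 0.0894, and -0.85, SE 0.0899). Shares over all genes in 154Q and 154Q-AXH were 11.1% and 7.15% in the cortex and 5.69% and 1.35% in the striatum. In the hippocampus 5.91% of all genes were called in 154Q and 1.3% in 154Q-AXH, or 6.06% and 3.61% without 154Q-76. Of 9 tested genes of the axis 4 were lowered there in 154Q, with a list median of -0.19. Fkbp5, a chaperone partner of the glucocorticoid receptor, changed by -0.72 (SE 0.151, adjusted p = 0.0163), Nr3c2, the mineralocorticoid receptor, by -0.55 (SE 0.121, adjusted p = 0.0204) Zbtb16 by -0.74 (SE 0.168, adjusted p = 0.0233) and Per1 by -0.52 (SE 0.123, adjusted p = 0.0291). Without 154Q-76 all 4 were still lowered, by 0.64, 0.46, 0.61 and 0.43. In 154Q-AXH 1 of 9 passed, Per1 (-0.62, SE 0.124, adjusted p = 0.0326), and without 154Q-76 Per1 (-0.62) and Zbtb16 (-0.56) passed.

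The hippocampal lists also held Avpr1b, a vasopressin receptor of the CA2 field, which was lowered in both mutants (-3.30, SE 0.370, and -2.94, SE 0.365). With Vip it made 2 of 8 related ligands and receptors lowered in 154Q, and alone 1 of 8 in 154Q-AXH. Over all hippocampal genes 5.91% and 1.3% were called, or 6.06% and 3.61% without 154Q-76. Of the granule genes Chgb fell by 0.72 (SE 0.0784) and Cpe by 0.42 (SE 0.105) in 154Q, and Chgb by 0.51 (SE 0.0782) in 154Q-AXH. Of 16 receptor signalling genes Prkacb, a catalytic subunit of protein kinase A, rose (0.35, SE 0.0824) and Arrb2 fell (-0.24, SE 0.0652) in 154Q, and 0 passed in 154Q-AXH. Without 154Q-76 Avpr1b changed by -2.87 in 154Q and -2.94 in 154Q-AXH, Chgb by -0.68 and -0.51 and Cpe by -0.35 in 154Q, all called. Prkacb (0.29, adjusted p = 0.0543) and Arrb2 (-0.26, adjusted p = 0.0568) did not pass in 154Q without it, so 0 receptor signalling genes did. The related ligands and receptors lowered without it were 3 in each mutant, Avpr1b and Vip in both, Avp in 154Q and Oxt in 154Q-AXH.

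Over all cerebellar genes 5.22% were called in 154Q and 2.21% in 154Q-AXH. In the cerebellum the related ligands and receptors had 2 of 7 tested genes raised and 1 lowered in 154Q, and 2 raised in 154Q-AXH. Adcyap1r1, the receptor of the peptide PACAP, rose in both (0.28, SE 0.0483, and 0.26, SE 0.0483), Adcyap1, which encodes PACAP, rose in 154Q (0.43, SE 0.0860), and Vipr2 fell there (-0.83, SE 0.163). Grk3, a kinase that desensitises receptors coupled to G proteins, was the 1 of 16 receptor signalling genes called in 154Q (-0.28, SE 0.0484). Cpe and Scg5 rose by 0.19 (SE 0.0342) and 0.20 (SE 0.0489) in 154Q, and 0 of 9 granule genes passed in 154Q-AXH. Of the glucocorticoid axis Hsd11b1, which regenerates corticosterone, rose in both mutants (0.24, SE 0.0640, and 0.32, SE 0.0639), and Tsc22d3 fell in 154Q-AXH (-0.25, SE 0.0514). In the striatum 0 of 7 related ligands and receptors, 0 of 16 receptor signalling genes and 0 of 9 granule genes passed in either mutant. Over all striatal genes 5.69% and 1.35% were called.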

How the data were processed

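RNA was measured in 59 libraries of 5 brain regions from 12 mice. The authors trimmed the reads with Trimmomatic 0.36, aligned the read pairs to GRCm38.p6 with STAR 2.7.2d and deposited raw counts per gene (unstranded column, 4 summary lines left out), the only unit used. In addition, 1 line of another organism, with at most 53 counts, was left out. The deposited files hold between 28058359 and 112343574 counted pairs each. Counts were few for Ucn and, in the cerebellum, for Crh and Crhbp. The size of counting error beside mouse-to-mouse spread was not measured. Libraries were not stranded, and no member overlaps another gene. Gene names, positions and exon lengths came from GENCODE M21 on GRCm38 (54079 of 54232 genes matched).

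Each region was fitted alone with edgeR 4.0.16 in R 4.3.3 (filterByExpr, TMM, quasi-likelihood test, 3 genotypes in 1 design), with p-values adjusted by Benjamini-Hochberg over all genes and a threshold of 0.05. Further designs covered the 20 WT libraries and the 48 libraries of 4 regions. Log2 CPM used a prior count of 2. SEs are those implied by the test, and intervals are 1.96 SE on each side. Correlations of gene patterns carry no p. The members and gene lists were chosen with earlier results of these data known. All members are named. Of each pathway list up to 3 called genes with the lowest adjusted p per region and comparison are named, with other genes of a list chosen after their values were seen. Genes most like a member are the first 5 (Crh) or 3 by Pearson's r. One gene of these is not reported here. Scripts were tested on simulated data. DESeq2 1.42.0, other scalings, filters, covariates, sample sets and leaving out each library in turn were tried as alternatives.

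The same mouse gave the libraries of all regions. Deviations from the WT region means correlated with a median r of 0.0588 (-0.420 to 0.625) in 40 pairs of libraries from 1 mouse and 0.00858 in 120 pairs from different mice, over 10651 genes.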

Additional observations from a re-analysis of the deposited data

Results flagged for a closer look

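In 70 groups of 4 libraries the CPM of a member was screened for 1 library standing apart. Its gap to the next had to exceed Dixon's 95% critical value for the group's range. For normally spread values chance does this in about 1 in 20 groups, and 10 groups were picked out. That rate does not hold for Ucn, where 1 library above 0 beside others at 0 is picked out at any count. In the hippocampus 154Q-76 stood high in Crh (4.21 CPM, others 0.785 to 1.07) and in Ucn (0.142 CPM, 16 counts, others 0), the library with brainstem genes. Hippocampal 154Q-AXH-218 stood low in Crhbp (4.06 CPM, others 16.8 to 18.9). Crhr2 stood high in cortical 154Q-75 (2.47 CPM, others 0.935 to 1.09) and in striatal 154Q-76 (2.6 CPM, others 0.597 to 0.832). Those 2 libraries also had the highest Ttr of their regions, 2249 and 2332 CPM. The other 5 were Ucn at few counts, with 0.0112 CPM in cerebellar WT-77 (1 count), 0.386 CPM in cortical WT-70 (13 counts), 0.0282 CPM in hippocampal 154Q-AXH-217 (2 counts), 0.147 CPM in striatal 154Q-69 (6 counts) and 0.219 CPM in striatal 154Q-AXH-218 (6 counts). No member was higher in every mutant library of one region and lower in every one of another.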

How the results depend on the processing

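The brainstem log2 fold change of Crh in 154Q stayed between -1.87 and -1.67 over 19 alternatives. In the cortex 1 member in place of 3 was called in 154Q with the number series of the mice as a model term, and 1 against the WT mice of the same number series alone. In the hippocampus 1 in place of 0 was called in 154Q with only 2 genotypes in the fit, and 0 to 1 over leaving out each library. Crh there ranged from -0.94 (without 154Q-76, reversed) to 0.30 (without WT-70). In the striatum 1 in place of 0 was called in 154Q against the WT mice of the same number series alone. With the mouse as a replicate block Crhr2 was called in 1 WT region pair in place of 2, as with DESeq2, and in 1 to 5 over leaving out each library. The replicate block changed no other count, and 0 members differed between regions with it or without the mixed hippocampal library, an alternative chosen after seeing the data. Of 882 alternative values of uncalled members 77 changed sign. Over all genes DESeq2 called 392 in place of 117 and 77 in place of 3 in the brainstem (154Q and 154Q-AXH over WT), 1719 for 1089 and 1060 for 462 in the cerebellum, 2154 for 1268 and 955 for 279 in the hippocampus and 1711 for 1047 and 598 for 249 in the striatum. Against the WT mice of the same number series alone the counts for 154Q were 4 in the brainstem, 372 in the cerebellum, 73 in the hippocampus and 328 in place of 2066 in the cortex, and for 154Q-AXH 2468 in the cerebellum and 0 in the striatum. With the number series as a model term they were 19 in the brainstem, 797 in the cortex, 675 in the hippocampus and 234 in the striatum for 154Q, and 1475 in the cerebellum, 571 in the cortex, 111 in the hippocampus and 149 in the striatum for 154Q-AXH. With only 2 genotypes in the fit they were 59 in the brainstem, 619 in the cerebellum and 841 in the hippocampus for 154Q, and 1, 241 and 488 in these regions and 73 in the striatum for 154Q-AXH. With Xist as a covariate the hippocampal counts were 590 and 181, with Ttr that of 154Q-AXH was 162, and without both cortical libraries in doubt 800 in place of 1330 were called in 154Q-AXH. Leaving out each library gave 38 to 117 in the brainstem, 732 to 1337 in the cerebellum, 1389 to 2051 in the cortex, 704 to 1561 in the hippocampus and 501 to 1455 in the striatum for 154Q, and 1 to 5, 160 to 556, 826 to 1521, 105 to 786 and 101 to 610 in the same order for 154Q-AXH. For 154Q the count moved by over 1.5 times without 154Q-69, 154Q-71, 154Q-AXH-209, WT-70, WT-220 or WT-221 in the brainstem, 154Q-69, WT-220 or WT-221 in the hippocampus and any 154Q mouse or WT-221 in the striatum. For 154Q-AXH it did so without 154Q-75, any 154Q-AXH mouse or WT-221 in the brainstem, WT-221 or any 154Q-AXH mouse but 154Q-AXH-218 in the cerebellum and 154Q-AXH-207 or WT-221 in the cortex. It also did so without 154Q-76, 154Q-AXH-209, 154Q-AXH-217, WT-70, WT-220 or WT-221 in the hippocampus and 154Q-AXH-207, 154Q-AXH-209, WT-77, WT-220 or WT-221 in the striatum. The causes were not tested. Counts were low for Ucn in all regions and for Crh and Crhbp in the cerebellum.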
